A study of Danio rerio with 8 samples.

Results

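Chemokines are small secreted proteins that steer migrating cells, and their receptors are G protein-coupled receptors that signal through Gi proteins, phosphoinositide 3-kinase and Rac to the actin cytoskeleton. The genes described here are the ligand genes cxcl12a, cxcl12b and ccl38a.5 and the receptor genes cxcr4a, cxcr4b, cxcr3.2 and cxcr3.3. Every probe set that carries one of these names as its single symbol in the platform annotation was taken. This gave 7 of 15502 non-control probe sets, for 6 of the 7 genes, with 4 probe sets on the ligand side and 3 on the receptor side. The annotation used here names no probe set for cxcr3.2, and cxcl12a alone had more than 1.

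The samples were cells of AB zebrafish embryos carrying a cd41-GFP transgene, taken 35 hours post fertilization. A flow cytometer separated living cells into GFP-positive and GFP-negative fractions, and both fractions come from transgenic embryos. RNA of each fraction was amplified linearly in 2 rounds and put on an Affymetrix zebrafish array, with 4 arrays of GFP-positive and 4 of GFP-negative cells that form 4 pairs. The GFP-negative fraction is the remainder of the whole embryo and mixes many tissues. Whether each pair is a separate clutch is not stated, so p-values here cover only how far these arrays differ from each other, and part of that may be technical.

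The values are MAS5 signals, a linear brightness per probe set, with the same trimmed mean on each array (1500.26 to 1500.47). A probe set is called dim on an array when its signal is not above that array's 40th percentile, which lay between 168 and 283. The label of the sort was not checked by its own gene. The signals of itga2b, which encodes Cd41, were dim on all 8 arrays, and the log2 difference was 0.29 (SE 0.71, adjusted p = 0.80 by limma with dim probe sets kept). The control probe set for a GFP variant was dim on all 8 arrays as well. It was higher in the GFP-positive sample in 4 of 4 pairs, by a mean log2 difference of 1.09, which lies within the 0.86 to 1.53 of 18 hybridization spike-in probe sets. All 18 were thus brighter on average on the GFP-positive arrays, and no difference given here was adjusted for them. Of 6 tested myeloid marker genes 6 were called higher and 0 lower by limma (0 lower also at an unadjusted p under 0.05). All 8 tested muscle, all 8 tested neural and all 7 tested mesenchyme and matrix markers were called lower. Of these, mylz3, neurog1, nova2, prrx1a and prrx1b were dim on all GFP-positive arrays and entered the test only through the GFP-negative arrays. That largely fixes their lower direction. Of 8 tested erythroid markers 5 were called lower and 3 did not pass. One of the latter, the globin gene hbae3 (named here after its values were seen), was higher in 4 of 4 pairs, by 0.13 to 1.84 (log2 difference 0.77, adjusted p = 0.13 by limma). The hbae3 difference moved with the scaling. It was 0.04 after quantile normalization, 0.39 after cyclic loess and 0.96 after median centring (adjusted p = 0.90, 0.46 and 0.04 by limma). Of 2 tested endothelial markers kdrl was called lower (-1.90) and the other did not pass. Of the thrombocyte and progenitor markers 5 were tested, of which f13a1b was called higher (log2 difference 2.30), tal1, thbs1b and lmo2 were called lower and myb did not pass. The lower calls of that list went to 0 without replicate 2 or without replicate 4. Like mylz3, thbs1b was dim on all GFP-positive arrays and entered the test only through the GFP-negative arrays. Among all tested probe sets 13% were called higher and 18.4% lower.

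The Cxcl12 to Cxcr4 pathway is conserved in vertebrates. Cxcl12, also known as stromal cell-derived factor 1, is secreted by stromal and other tissue cells and holds or attracts cells that carry Cxcr4. In mammals it retains blood stem cells and neutrophils in the bone marrow. Zebrafish keep a pair of genes for the ligand and a pair for the receptor, and Ackr3b, an atypical receptor, takes up and degrades the ligand in place of signalling through G proteins.

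In the GFP-positive fraction the receptor gene cxcr4b was higher, while its paralogue cxcr4a and both cxcl12 ligand genes were lower. The other receptor gene, cxcr3.3, and the CC ligand gene ccl38a.5 were higher and were dim on all GFP-negative arrays. Of the 7 probe sets 6 passed the filter on dim signals, which asks for a signal above the 40th percentile on at least 4 of 8 arrays. By limma, with p-values adjusted by Benjamini and Hochberg over 9801 tested probe sets and a threshold of 0.05, 3 of these 6 were called higher and 3 lower in GFP-positive cells. Over all tested probe sets 31.4% were called in either direction, 13% higher and 18.4% lower. The fractions did not overlap for any of the 6, as was true of 34.5% of all tested probe sets (14.5% with GFP-positive cells higher and 19.9% with them lower). Of the 6, ccl38a.5 and cxcr3.3 passed the filter only through the 4 GFP-positive arrays. Passing that way largely fixes the direction and the lack of overlap, so neither counts as a separate result for these genes. Leaving out a pair kept 3 higher calls each time, and the lower calls were 2 without replicate 2 and 1 without replicate 4. In bulk RNA of sorted cells, fewer cells of a type and less RNA per cell cannot be told apart.

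**Figure D1:**
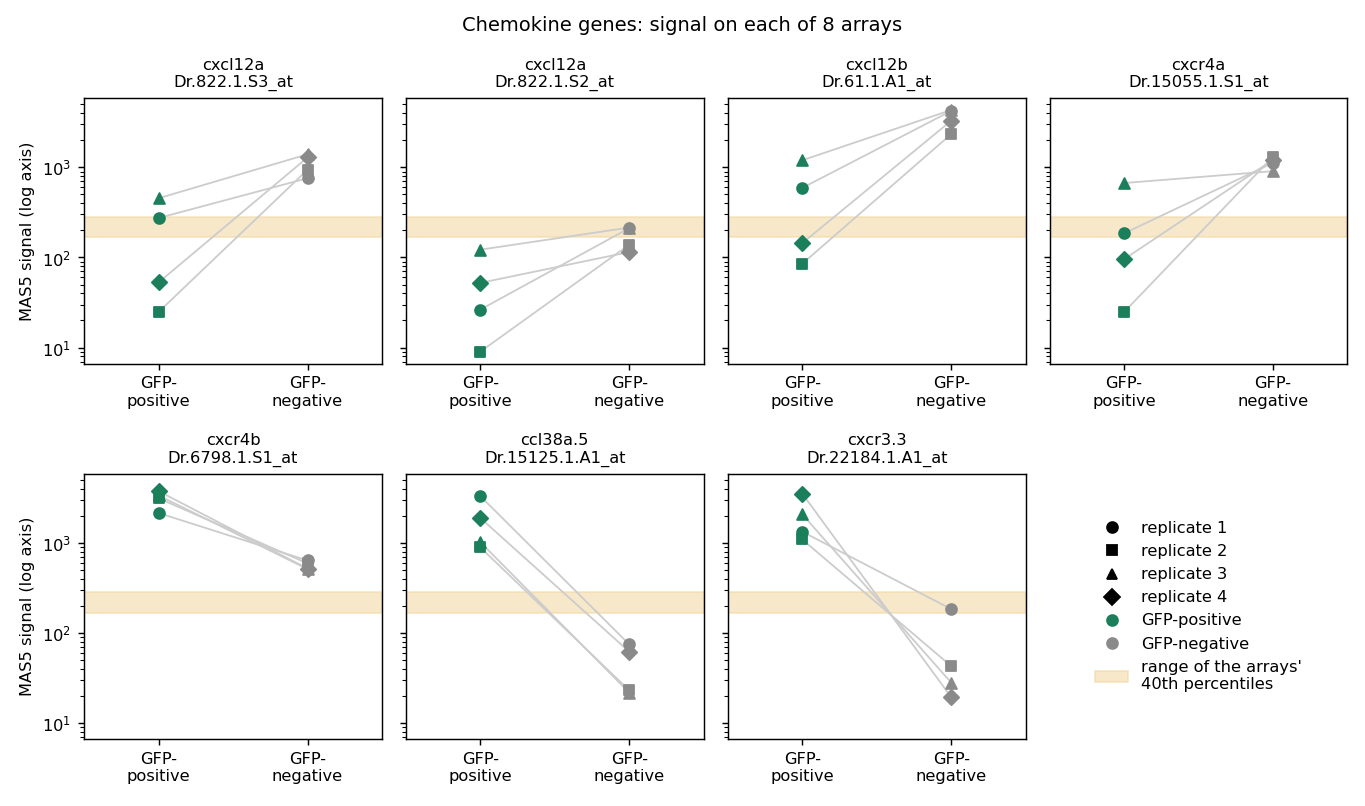
MAS5 signal (log axis) of each chemokine probe set on the 4 GFP-positive arrays (green, left) and the 4 GFP-negative arrays (grey, right), with a grey line joining the arrays of a pair a marker shape per replicate and the probe set identifier above each panel. The shaded band spans the 40th percentiles of the arrays, 168 to 283. The signals of cxcl12a, cxcl12b and cxcr4a fell into or below the band on at least 2 GFP-positive arrays, while those of ccl38a.5 and cxcr3.3 lay there only on GFP-negative arrays.

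Among the ligands, cxcl12b encodes a Cxcl12 that in zebrafish guides the formation of the lateral dorsal aortae. Its signals were 591, 85.0, 1198 and 144 in GFP-positive replicates 1 to 4, against 4233, 2339, 4333 and 3293 in GFP-negative replicates 1 to 4. Each GFP-positive array lay below each GFP-negative one, and GFP-positive replicates 2 and 4 were dim. The fitted log2 difference was -3.50 (SE 0.52, 95% interval -4.73 to -2.26, adjusted p = 0.0052 by limma). It was -3.07 without replicate 2 and -4.05 without replicate 3. Since 2 of 4 GFP-positive arrays measured it above the 40th percentile, the fold is given as a bound, at least 9.14-fold lower. For these bounds the lower fraction was set, on each array, to the higher of the percentile and the signal, and the spread between arrays was left out.

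The paralogue cxcl12a, whose product guides primordial germ cells and the lateral line primordium in zebrafish, was read by a pair of probe sets. The brighter one, whose identifier ends in S3, gave 274, 24.8, 454 and 52.8 in GFP-positive replicates 1 to 4, against 758, 942, 1397 and 1289 in GFP-negative replicates 1 to 4. It was measured above the percentile on 1 of 4 GFP-positive arrays, that of replicate 3, and on 4 of 4 GFP-negative arrays. The log2 difference was -3.24 (SE 0.71, 95% interval -4.92 to -1.55, adjusted p = 0.016 by limma), or at least 4.32-fold lower. This call was lost without replicate 4, where the log2 difference was -2.78 (adjusted p = 0.068), and the difference was -2.57 without replicate 2 and -3.83 without replicate 1.

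The dimmer cxcl12a probe set, ending in S2, failed the filter. It gave 26.4, 9.01, 122 and 52.2 in GFP-positive replicates 1 to 4, against 212, 139, 215 and 115 in GFP-negative replicates 1 to 4. The fractions overlapped in signal, with dim values on both sides, and the GFP-positive array was the lower one in 4 of 4 pairs. With no filter its log2 difference was -2.22 (SE 0.65, adjusted p = 0.043 by limma), from 0 of 4 GFP-positive and 2 of 4 GFP-negative arrays above the percentile. In replicates 2 and 4 both arrays were dim. With dim signals at the percentile, the GFP-positive signal was at most 133% and 114% of its pair in replicates 1 and 3. The dimmer probe set therefore does not settle a direction, and no fold is given for it.

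The CC chemokine gene ccl38a.5, for which RefSeq lists the synonym ccl2, was higher in GFP-positive cells, unlike the cxcl12 genes. It passed the filter only through the GFP-positive arrays, which largely fixes that direction. CC chemokines as a family attract leukocytes. The signals of its probe set were 3316, 895, 1023 and 1897 in GFP-positive replicates 1 to 4, against 74.9, 23.1, 21.8 and 62.1 in GFP-negative replicates 1 to 4. Every GFP-negative array was dim and lay below every GFP-positive one, so the size of each pair difference is known only as a lower limit. With dim signals as deposited, the fitted log2 difference was 5.31 (SE 0.34, 95% interval 4.51 to 6.11, adjusted p = 0.00053 by limma). With the GFP-negative arrays set to their 40th percentiles, the signal was at least 7.35-fold higher. The log2 means were 10.60 in GFP-positive and 5.29 in GFP-negative cells.

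On the receptor side the cxcr4 paralogues went opposite ways. Cxcr4b is the receptor that, in zebrafish, germ cells, the lateral line primordium and leukocytes use to follow or respond to Cxcl12a. Signals of cxcr4b were 2159, 3143, 3380 and 3777 in GFP-positive replicates 1 to 4, against 641, 595, 514 and 521 in GFP-negative replicates 1 to 4. Every array of both fractions was above its 40th percentile, so both levels were measured, and the fractions were far apart relative to their spread (log2 SD 0.35 in GFP-positive and 0.15 in GFP-negative cells). The log2 difference was 2.43 (SE 0.29, 95% interval 1.73 to 3.13, adjusted p = 0.0030 by limma), a 5.40-fold higher signal. It kept its call without any 1 pair, at 2.29 to 2.66.

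Cxcr4a is the paralogue that works with Cxcl12b in zebrafish vessel formation. Its probe set gave 185, 24.7, 670 and 95.5 in GFP-positive replicates 1 to 4, against 1122, 1312, 908 and 1212 in GFP-negative replicates 1 to 4. The GFP-negative arrays lay close together (log2 SD 0.23, n = 4), whereas among the GFP-positive arrays only replicate 3 exceeded its 40th percentile. In that pair, the one measured on both sides, the log2 difference was -0.44. The log2 difference was -3.11 (SE 0.78, 95% interval -4.95 to -1.26, adjusted p = 0.024 by limma), or at least 4.16-fold lower. The call was lost without replicate 2 (log2 difference -2.23, adjusted p = 0.060) and without replicate 4 (-2.92, adjusted p = 0.090), and without replicate 3 the difference was -4.0 (adjusted p = 0.0099).

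Cxcr3.3 belongs to the Cxcr3 receptors, which in mammals respond to interferon-induced CXC ligands. In zebrafish it has been described on macrophages as an atypical receptor that dampens the response through Cxcr3.2. The signals of cxcr3.3 were 1341, 1099, 2089 and 3550 in GFP-positive replicates 1 to 4, against 185, 43.1, 28.3 and 19.5 in GFP-negative replicates 1 to 4. All 4 GFP-negative arrays were dim and none reached a GFP-positive value, so here too each pair difference is a lower limit. Like ccl38a.5, cxcr3.3 passed the filter only through the GFP-positive arrays, which largely fixes its direction. The log2 difference was 5.31 (SE 0.73, 95% interval 3.58 to 7.04, adjusted p = 0.0043 by limma), or at least 8.62-fold higher. The log2 means were 10.83 in GFP-positive and 5.52 in GFP-negative cells, and the difference was 6.13 without replicate 1 and 4.58 without replicate 4.

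**Figure D2:**
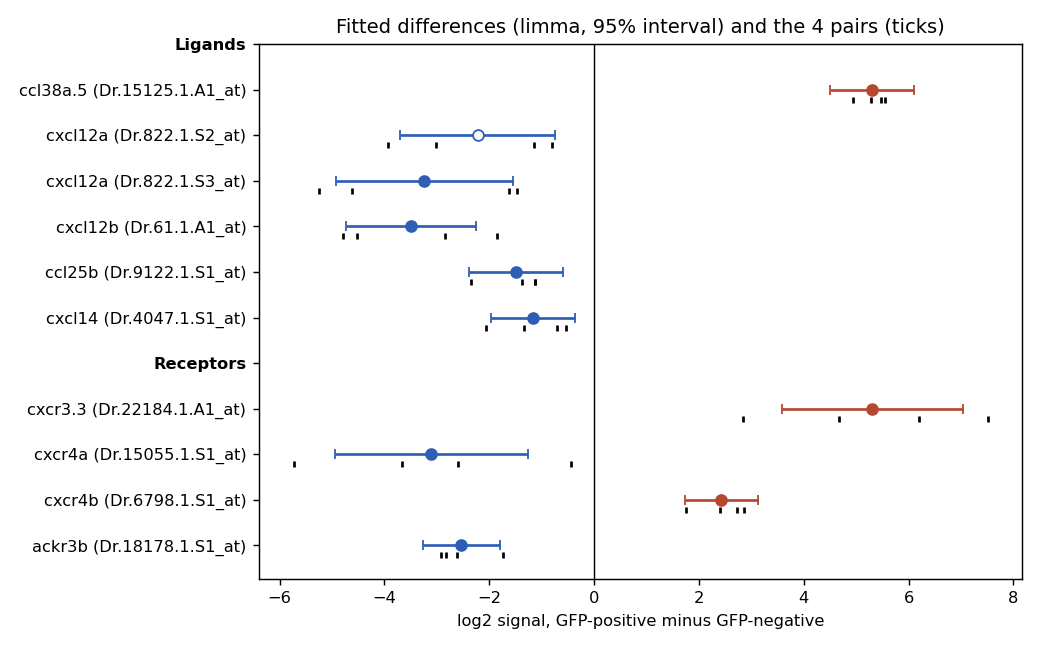
Fitted log2 differences, GFP-positive minus GFP-negative, of the chemokine ligand and receptor probe sets, with 95% intervals of the limma fit and small ticks for the 4 pairs, with dim signals as deposited. Red points are above 0 and blue points below, and the open point is the cxcl12a probe set that failed the filter on dim signals, from the fit without that filter. The points of ccl38a.5 and cxcr3.3 (5.31 each) and cxcr4b (2.43) lie right of 0 and those of cxcl12a, cxcl12b and cxcr4a lie left of it, as do the other chemokine genes ccl25b, cxcl14 and ackr3b.

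The difference between paralogues was compared pair by pair, in 2 comparisons. The log2 difference of cxcr4b exceeded that of cxcr4a in 4 of 4 pairs, by a mean of 5.54 with the dim cxcr4a signals taken as deposited. With dim signals set to the percentile of their array, an alternative added after the data were seen, the mean was at least 4.49 (range 3.16 to 5.69 over 4 pairs). The exact two-sided permutation test over the signs of the pairs gave p = 0.125 either way, the smallest that 4 pairs can give, so it cannot pass 0.05 (adjusted p = 0.25 over the 2 comparisons, exact). For the ligands, the log2 difference of cxcl12b minus that of cxcl12a (the S3 probe set) was -0.26 (SD 0.79, range -1.37 to 0.47, n = 4 pairs, exact permutation p = 0.75, adjusted p = 0.75). Since both ligand genes were dim on some GFP-positive arrays, this value is no measured difference: with dim signals set to the percentile it was -1.08 (exact permutation p = 0.125, with 0 of 4 pairs above 0). Whether the ligand paralogues changed unequally could not be told from 4 such pairs.

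Among the GFP-positive arrays, that of replicate 3 had the highest signal of cxcl12a (the S3 probe set), cxcl12b and cxcr4a, and the dim signals on the other arrays have no order. In replicate 3 cxcr4a stood at 73.8% of the paired GFP-negative signal, and with dim signals at the percentile it was at most 25.3%, 12.8% and 14% in replicates 1, 2 and 4. The share of cxcl12b was 14% in replicate 1 and 27.6% in replicate 3, and at most 7.19% and 5.17% in replicates 2 and 4. The summed signals of the muscle, neural, mesenchyme and endothelial markers were also highest on the array of GFP-positive replicate 3, whereas the erythroid sum was lowest there. These sums hold dim signals as deposited, unlike the limits given for the chemokine genes. On at least 1 GFP-positive array 6 of 8 muscle, 7 of 8 neural and 3 of 7 mesenchyme and matrix markers were dim. The low shares of these sums are therefore no measured sizes. The summed signal of 8 muscle markers was 1336 to 5379 on GFP-positive arrays and 38684 to 102243 on GFP-negative arrays. In replicate 3 it was 13.9% of its pair, against 1.31% to 2.91% in the other replicates. The sum of 8 neural markers was 1423 to 7224 in GFP-positive and 27416 to 45522 in GFP-negative cells, with 26.3% in replicate 3 and 3.13% to 5.05% elsewhere. For 7 mesenchyme and matrix markers the sums were 1718 to 6137 in GFP-positive and 18603 to 23859 in GFP-negative cells. The 2 endothelial markers summed to 704 to 2023 in GFP-positive and 1860 to 3761 in GFP-negative cells. The sum of 8 erythroid markers was 279281, 284767, 236157 and 240873 in GFP-positive replicates 1 to 4, against 147380, 271800, 255859 and 251185 in GFP-negative replicates 1 to 4, which is 92.3% of its pair in replicate 3 and 95.9% to 189% in the others. Most of that sum came from the bright globin genes hbae3 and hbbe3, neither of which was called. It does not stand for the list, in which 5 of 8 markers were called lower. Of the markers in these sums, mylz3, neurog1, nova2, prrx1a and prrx1b were dim on all GFP-positive arrays.

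**Figure D3:**
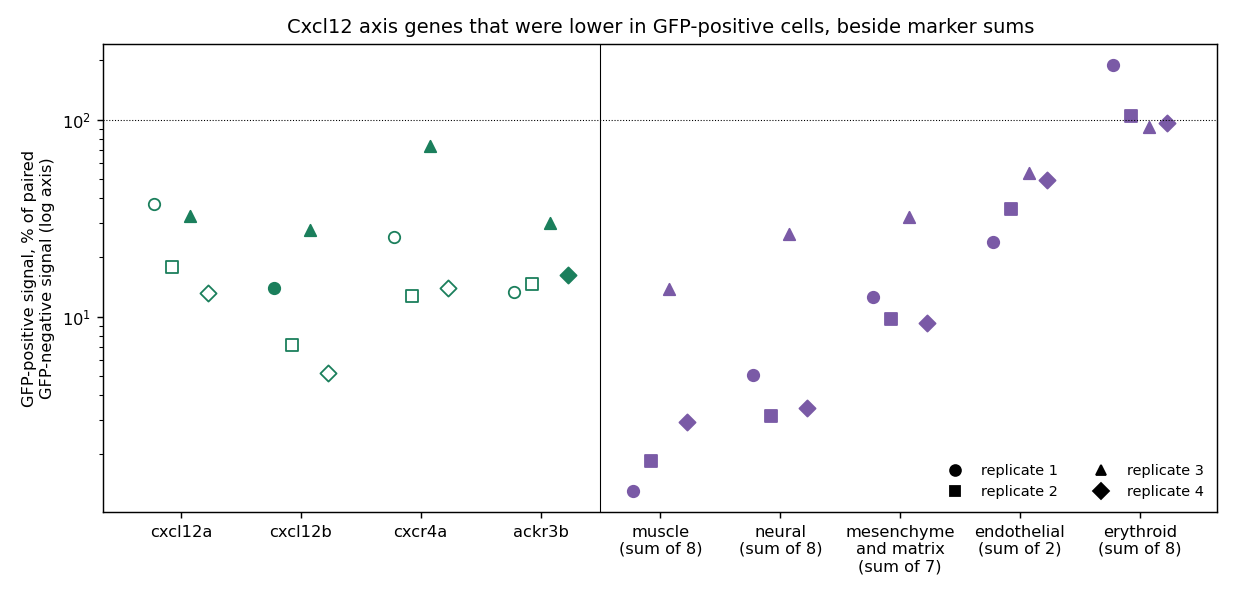
Signal on each GFP-positive array as a percentage of the paired GFP-negative array (log axis, dotted line at 100%), for 4 chemokine genes that were lower in GFP-positive cells (green) and for the summed signals of 5 lists of markers (purple), with a marker shape per replicate and open symbols for upper limits, where the GFP-positive signal was dim and was set to the percentile. The marker sums hold dim signals as deposited and show no limits. Replicate 3 is the highest for cxcr4a (73.8%), cxcl12b (27.6%) and ackr3b (30%) and for the muscle, neural, mesenchyme and endothelial sums, and the lowest for the erythroid sum (92.3%), while cxcl12a has 32.5% in replicate 3 and at most 37.4% in replicate 1. The erythroid sum is mostly the signal of the globin genes hbae3 and hbbe3.

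A ratio that rises when the 5' ends of transcripts are under-represented was also highest in GFP-positive replicate 3. Dividing the GAPDH control signal at the 3' end by that at the 5' end gave 86.6, 31.3, 100 and 45.6 in GFP-positive replicates 1 to 4, against 75.4, 22.6, 18.2 and 21.6 in GFP-negative replicates 1 to 4, so among GFP-positive arrays it too was highest in replicate 3. In every pair the ratio was higher on the GFP-positive array. The part of RNA shortening in the difference of any member, higher or lower, was not tested. The part of the marker transcripts in the differences of cxcl12a, cxcl12b and cxcr4a was not tested either. Each of these genes had a smaller difference in pair 3 than over all pairs, so leaving out replicate 3 had to enlarge the differences. They were then -3.77, -4.05 and -4.0, and each gene kept its call. The call of cxcr4a was lost without replicate 2, and those of cxcr4a and cxcl12a without replicate 4.

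The higher genes stood beside the myeloid markers in another way. The summed signal of 6 myeloid markers was 155457, 259430, 289899 and 289502 in GFP-positive replicates 1 to 4, against 43699, 34402, 16118 and 19818 in GFP-negative replicates 1 to 4. In both fractions cxcr4b followed nearly the same order as the sum, with GFP-positive replicate 1 the lowest of its fraction and GFP-negative replicate 1 the highest. The brightest marker in the sum was lyz on every array, and single markers differed in order. Among GFP-positive arrays spi1b, mpx, lyz and lcp1 were also lowest in replicate 1. By contrast, ptprc was highest there and coro1a was lowest in replicate 3. As a share of the paired GFP-negative signal, cxcr4b stood at 337%, 528%, 658% and 725% in replicates 1 to 4, and the myeloid sum at 356%, 754%, 1800% and 1460%. The other higher chemokine genes did not keep the order of the sum. Among GFP-positive arrays ccl38a.5 was highest in replicate 1, and cxcr3.3 was highest in replicate 4 and lowest in replicate 2. Set against GFP-negative arrays at their percentiles, cxcr3.3 was at least 642%, 541%, 995% and 1600% in replicates 1 to 4. The part of the myeloid transcripts in these differences was not tested.

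The other chemokine genes on the array were few, and the tested ones were lower in GFP-positive cells. The only other chemokine receptor with a probe set was ackr3b. Its signals were 279, 161, 534 and 231 in GFP-positive replicates 1 to 4, against 2109, 1150, 1779 and 1420 in GFP-negative replicates 1 to 4. The log2 difference of ackr3b was -2.53 (SE 0.31, adjusted p = 0.0033 by limma), and with 2 of 4 GFP-positive arrays above the percentile it was at least 5.68-fold lower. The ackr3b signal, too, was highest on the GFP-positive array of replicate 3.

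Of 6 other chemokine ligand genes 2 were tested and both were called lower, neither firmly. Over all tested probe sets 18.4% were called lower. The log2 difference of cxcl14, a ligand of epithelial tissues in mammals, was -1.16 (SE 0.34, adjusted p = 0.039 by limma). That call was lost without replicate 2 (-0.87), 3 (-1.31) or 4 (-1.11), under quantile normalization or cyclic loess and with no replicate block. The difference of ccl25b, whose mammalian counterpart draws lymphoid progenitors to the thymus, was -1.49 (SE 0.38, adjusted p = 0.025 by limma), at least 1.97-fold lower. It lost its call without replicate 2 (-1.21), 3 (-1.53) or 4 (-1.62). Being dim on all GFP-positive arrays, ccl25b passed the filter only through the GFP-negative arrays, which largely fixes its direction. The remaining ligand genes ccl19a.1, ccl27a, ccl34b.1 and ccl44 failed the filter. Of these, ccl34b.1 gave 391, 156, 86.6 and 139 in GFP-positive replicates 1 to 4, against 25.9, 18.4, 44.1 and 14.6 in GFP-negative replicates 1 to 4. It was above the percentile on 1 of 8 arrays, and with no filter its log2 difference was 2.81 (SE 0.61, adjusted p = 0.015 by limma). The values of ccl34b.1 are given here after they were seen. With no filter the others did not pass by limma. Their log2 differences were -0.54 for ccl19a.1 (adjusted p = 0.59), 1.56 for ccl27a (adjusted p = 0.18) and 0.26 for ccl44 (adjusted p = 0.81).

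Downstream of the receptors, several signalling genes were higher in GFP-positive cells. In the list of G proteins and phosphoinositide 3-kinase 5 of 11 tested genes were called higher and 0 lower by limma (0 lower also at an unadjusted p under 0.05), with a median log2 difference of 1.09 (0.82 when dim genes are set to their bounds). Over all tested probe sets 13% were called higher and 18.4% lower, and the median was -0.18. The gene pik3cg encodes the catalytic subunit that Gi-coupled receptors activate through their beta-gamma subunits. Its signals were 51454, 10550, 8020 and 16235 in GFP-positive replicates 1 to 4, against 985, 618, 547 and 446 in GFP-negative replicates 1 to 4, and the log2 difference was 4.72 (SE 0.38, adjusted p = 0.00081 by limma). The Gi alpha subunit genes gnai2a and gnai2b differed by 2.29 and 1.61 on the log2 scale, and the gamma subunit gene gng12a by 1.80. The call of gnai2b was lost without replicate 2 (1.35, adjusted p = 0.060 by limma), and the list then had 3 higher calls.

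In the list of Rac and actin regulators 8 of 21 tested genes were called higher and 3 lower, with a median of 1.05. Against 13% higher and 18.4% lower over all tested probe sets, the share of lower calls in this list was not raised. The small GTPase gene rhogb differed by 5.19 on the log2 scale (at least 35.7-fold higher, with 3 of 4 GFP-negative arrays above the percentile), and the actin regulator genes coro1a, wasb and actr2a by 4.61, 3.62 and 2.25. The list's lower calls were pak1 (-2.23), rhogc (-1.27) and rac1a (-1.95), named here after their values were seen, and they numbered 1 without replicate 2 and 0 without replicate 4. Both coro1a and wasb also mark leukocytes at large, and coro1a is counted among the myeloid markers as well. The part of the myeloid transcripts in the differences of this list and of the other signalling lists was not tested.

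The desensitisation list holds arrestins, receptor kinases and RGS proteins, of which the RGS proteins act by speeding GTP hydrolysis. The tested genes were RGS and arrestin genes, and no receptor kinase gene was tested. Here 4 of 6 tested genes were called higher and 0 lower by limma (0 lower also at an unadjusted p under 0.05), with a median of 2.75 (2.25 when dim genes are set to their bounds). The share called higher over all tested probe sets was 13%. The log2 difference of rgs2 was 4.10 (SE 0.27). Both rgs13a and rgs14a were dim on all GFP-negative arrays and at least 13.3-fold and at least 8.59-fold higher. They too passed the filter only through the GFP-positive arrays, which largely fixes their direction. The arrestin gene arrb2b differed by 1.40, and its call was lost without replicate 2 (1.34, adjusted p = 0.065 by limma) or replicate 4 (1.40, adjusted p = 0.050). Of 2 tested receptors for other chemoattractants, s1pr1, a sphingosine phosphate receptor, was called lower (-2.73) and s1pr2 did not pass (0.70, adjusted p = 0.22 by limma).

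**Figure D4:**
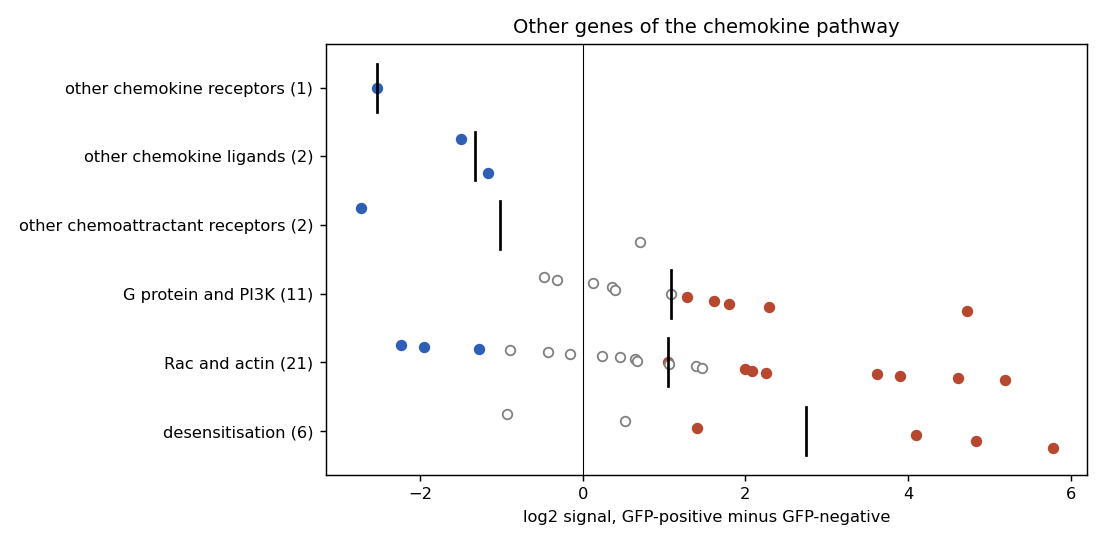
Log2 differences, GFP-positive minus GFP-negative, of the other genes of the chemokine pathway, by list, with the number of tested genes in brackets and a black bar at each list's median. Filled points passed an adjusted p of 0.05 (red higher, blue lower) and open points did not. The medians of the 3 lists of chemokine and chemoattractant genes lie below 0 but rest on only 1 or 2 tested genes each. In the chemoattractant list s1pr1 (-2.73) and s1pr2 (0.70) lie on opposite sides of 0. The medians of the 3 signalling lists lie at 1.09, 1.05 and 2.75.

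The genes with the most similar profiles were found by the root mean square distance between log2 profiles over the 8 arrays, each centred on its own mean. The arrays share the pairing and the split into fractions, so a small distance mostly reflects a fraction difference of similar size, and dim signals entered as deposited. For cxcr4b these were cd63 (distance 0.18) and cyp3c1 (0.21), with log2 differences of 2.63 and 2.30. Closest to cxcr3.3 were dusp2 (0.50) and ncf1 (0.54), and to ccl38a.5 tnfaip8l2a (0.45) and itgae.2 (0.50). For cxcl12b they were nr2f5 (0.27) and cnmd (0.30), for cxcl12a ccdc102a (0.27) and mdkb (0.33), and for cxcr4a foxa2 (0.34) and tubb5 (0.35). Within the chemokine genes, the distance between cxcl12a and cxcl12b was 0.40, that between cxcr4a and each of them 0.52 and 0.56, and that between cxcr4a and cxcr4b 3.04.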

How the data were processed

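The authors deposited intensity values, 1 for each probe set on each array. They are linear MAS5 signals per the submitters' processing notes, with no version given in the sources used here, and detection calls were not used. The deposited intensity values were used as they stand, as log2 with no offset. No arrays held identical values.

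Groups and replicate numbers come from the sample titles. Of 15617 probe sets, 115 controls were left out, and those above the 40th percentile of their array on at least 4 of 8 arrays were tested (9801). Names come from the platform annotation, in which 10802 probe sets have 1 symbol, 135 several and 4680 none, with symbols updated by gene identifier. No genome coordinates or sequences were used. The fractions were compared in limma 3.58.1 under R 4.3.3 (trend on mean expression, two-sided, Benjamini-Hochberg), with the replicate number as a block, since the series' design text mentions pairing of the fractions. Within a pair, deviations from the group means correlated at 0.397, 0.262, 0.181 and -0.122, so in pair 4 the pairing rests on that text alone. The fit was tested on simulated data with normally distributed noise and no floor for dim signals. That test does not cover probe sets that are dim in a fraction, as most members were. A gene with several tested probe sets is represented in lists by the one with the highest mean.

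The members, lists and rules were chosen with earlier results of these data known. Named are all members, up to 4 genes of each pathway list and up to 3 of each marker list by smallest p (not all are printed), itga2b, the GFP control and the 2 nearest genes by profile of each tested member probe set. Further list genes, among them lmo2, myb, mpx, lyz, lcp1 and hbbe3, are named outside this rule, after their values were seen. Alternatives covered 3 other scalings, an offset of 64, no filter, a 60th percentile filter, no block, no trend and each pair left out. The number of arrays limits the precision.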

Additional observations from a re-analysis of the deposited data

How the results depend on the processing

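The higher calls of cxcr4b, cxcr3.3 and ccl38a.5 and the lower call of cxcl12b held under all 12 alternatives. The lower calls of cxcr4a and cxcl12a (the S3 probe set) held in 10 and 11 of 12. The fits with 1 pair left out kept the probe sets that passed the filter on all 8 arrays. As cxcr3.3 and ccl38a.5 passed it only through the GFP-positive arrays, their direction was largely fixed in those fits too. With 1 pair left out, the log2 difference of cxcr4a ran from -4.0 to -2.23 and that of cxcl12a from -3.83 to -2.57, and the lower calls among the members from 1 to 3. The calls over all probe sets then ran from 646 to 1466 higher and from 659 to 2027 lower, each lowest without replicate 4 and highest without replicate 1. With no replicate block 1191 probe sets were called higher and 1688 lower, all 6 member calls held, cxcl14 lost its call, and no other count that the text leads with moved by over 1.5 times. With 1 pair left out, the higher calls of the G protein list ran from 3 to 6, and the lower calls of the Rac and actin list from 0 to 3 and of the other chemokine ligands from 0 to 2. These lower ligand calls numbered 1 with quantile normalization, cyclic loess, the 60th percentile filter or no replicate block, and with no filter 1 ligand (ccl34b.1) was called higher. The paralogue difference of cxcl12b minus cxcl12a ran from -0.51 to 0.11 with 1 pair left out, turning positive without replicate 1, and was -1.08 with dim signals set to the percentile, an alternative chosen after seeing the data, which replaces dim values on GFP-positive arrays. For every other case the cause was not tested. The median log2 difference of all tested probe sets was -0.182 as deposited, -0.069 after quantile normalization, -0.058 after cyclic loess and 0.008 after median centring, and no member changed direction. Dim signals limit cxcl12a, cxcl12b, cxcr4a, ccl38a.5 and cxcr3.3 to bounds.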
